A study of Mus musculus with 10 samples.

Results

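An interval of chromosome 14 that is labelled by the genes Slc25a37 and Entpd4 was examined for copy number in liver DNA of 10 mice. It comprised 75 of the 170305 positions on the array, from the first at chr14:69615875 to the end of the last at chr14:70381448 (mm9, chromosome 14). Each position is a 60-base oligonucleotide. The interval was chosen by these same measurements, because the level varied between animals of one group and segments of loss were called there, so the levels and the spread within and between the groups are given as a description without a test. Within it the change was restricted to 23 neighbouring positions. There 7 animals lay below the reference, namely all 5 naturally born animals and ICSI-derived animals 2 and 3, while ICSI-derived animals 1, 4 and 5 lay above it.

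The 5 ICSI-derived animals were ZFLacZ progeny made by intracytoplasmic sperm injection, the delivery of one sperm directly into the egg. The germ cells had been cryopreserved 14 years earlier in testis cell preparations. Their oocytes came from DBA x C57BL/6 females, and the ZFLacZ transgenic line itself goes back to SJL x C57BL/6. The 5 naturally born animals were adult ZFLacZ progeny, called wild-type controls in the labels. By their labels 3 animals of each group were male and 2 female. Kinship among the animals and the number of sperm and oocyte donors are not given in the sources used here. DNA of each animal carried Cy5 and was compared on the same array with Cy3-labelled reference DNA, in which the strains C57BL/6, SJL and DBA were mixed in equal parts. A log2 ratio of 0 is therefore the content of that pool and not of a single strain. The oocyte strains, the storage of the germ cells and the method of conception cannot be told apart as sources of a difference between the groups.

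Slc25a37 encodes mitoferrin-1, a carrier of the inner mitochondrial membrane that brings iron into the matrix for the synthesis of heme and of iron-sulfur clusters, and it is best known from developing red blood cells. Entpd4 encodes a membrane-bound nucleoside diphosphatase of the Golgi apparatus and of lysosomal vesicles, which hydrolyses nucleotides such as UDP after sugars have been transferred. The order of protein-coding genes in RefSeq, on the later build GRCm38.p6, runs from Slc25a37 over Synb, Entpd4, Gm16867, Gm21451 and LOC115488278 to Entpd4b. Synb encodes syncytin-B, a placental cell fusion protein of retroviral origin. Entpd4b is a second gene of the Entpd4 type, with 3 predicted genes between both copies. The files give positions without gene names or oligonucleotide sequences, and no gene annotation of mm9 was used here. Which of the 23 positions lie in Slc25a37, Synb, Entpd4 or Entpd4b, in exons or introns, and whether an oligonucleotide matches more than one copy was therefore not tested, and the name of the interval could not be checked against the data.

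The level of an animal is the mean log2 ratio of its DNA over the pool, centred on the median over all autosomal positions of its array. Over the 23 positions it was 0.22 in ICSI-derived animal 1, -0.39 in animal 2, -0.41 in animal 3, 0.21 in animal 4 and 0.13 in animal 5. In the naturally born animals it was -0.41, -0.35, -0.38, -0.34 and -0.39 in replicates 1 to 5. The mean was -0.05 ± 0.32 (SD, n = 5) in the ICSI-derived and -0.37 ± 0.03 (SD, n = 5) in the naturally born group. The ICSI-derived mean thus falls where no animal lies: 3 animals were above every naturally born animal and 2 were among or below them. As linear ratios, the signal of ICSI-derived animals 1, 4 and 5 was 1.16, 1.16 and 1.10 times that of the pool, and that of the other 7 animals was between 0.75 and 0.79 times.

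Ordered by level, the 7 low animals ran from -0.41 to -0.34 with gaps between neighbours of 0.0031 to 0.033. Then followed a gap of 0.47 between naturally born animal 4 and ICSI-derived animal 5. ICSI-derived animals 5 and 4 lay 0.079 apart, and animals 4 and 1 only 0.0056. The SD over the 23 positions of one animal was between 0.093 and 0.20. It describes single positions and not the error of a mean over 23, so the gaps were not judged by it. The highest and the lowest animal differed by 0.63. For scale, a step from 2 to 3 copies is by calculation 0.58 on the log2 scale. As a measured value, chromosome X differed by 0.85 between females and males whose sex chromosomes matched their labels. A calculated step and a measured difference are not directly comparable. Other copy steps were not set beside the difference of 0.63, and the copy numbers of the animals and of the pool were not determined.

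**Figure D1:**
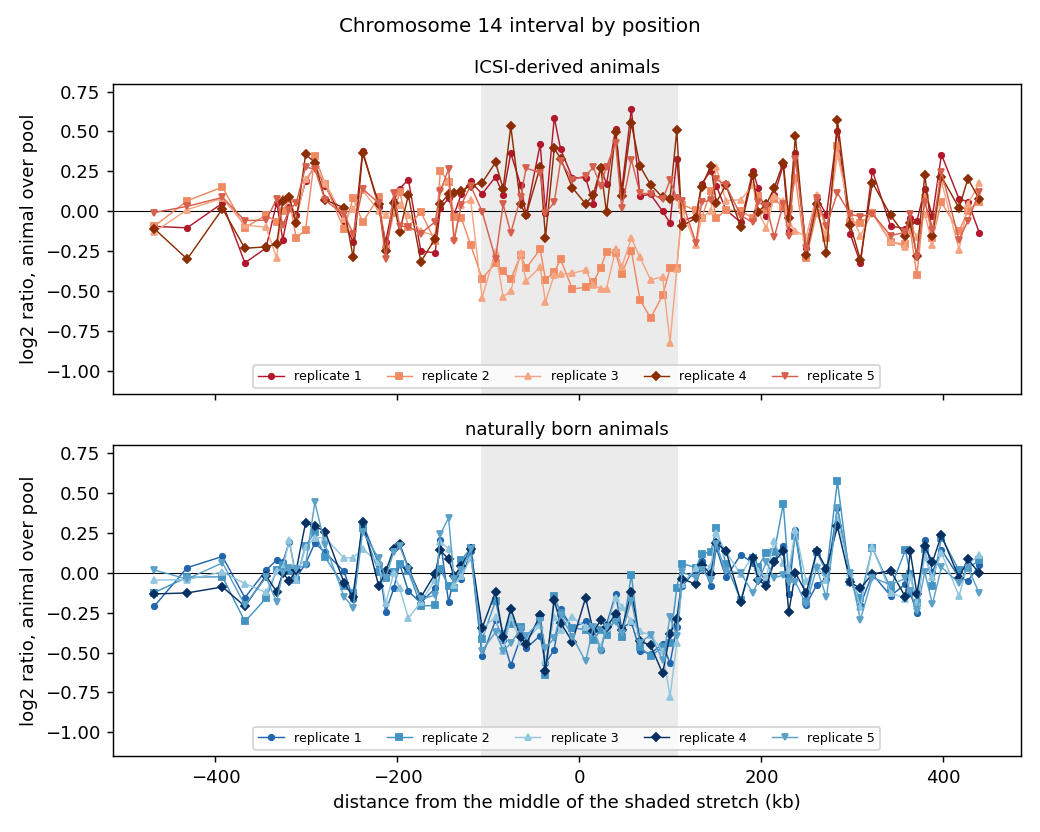
Log2 ratio of each animal over the pool (vertical axis) at successive positions of the chromosome 14 interval and just beyond it (horizontal axis, distance in kb from the middle of the shaded stretch), with ICSI-derived animals in the upper and naturally born animals in the lower panel and one line per animal. In the shaded stretch of 23 positions all 5 naturally born animals and ICSI-derived animals 2 and 3 run below 0 and ICSI-derived animals 1, 4 and 5 mostly above 0, while outside it the 10 lines mostly run together.

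Loss segments were found by splitting the profile of each animal into stretches of constant mean, with a call at a mean of -0.25 or lower over at least 5 positions. A loss is thus meant relative to the pool and not to a single strain. A loss was called in 7 animals, 2 of them ICSI-derived, and no gain was called in ICSI-derived animals 1, 4 and 5, whose levels stayed under the threshold of 0.25. In 5 animals the segment had the same ends, chr14:69876584-70090608, with 23 positions and 214 kb: ICSI-derived animal 3 and naturally born animals 1, 3, 4 and 5. In ICSI-derived animal 2 it started one position earlier, at chr14:69863952, with 24 positions and 227 kb. In naturally born animal 2 it ended one position earlier, at chr14:70083135, with 22 positions and 207 kb. A threshold of 0.4 in place of 0.25 left 2 animals with a call, ICSI-derived animal 3 and naturally born animal 1, since the 7 low levels lie on both sides of that value.

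Of the 75 members, 23 were covered by a loss in 5 or more animals, and 22 in 7 animals. Over all 161460 autosomal positions, 228 were covered by a loss in 5 or more animals, 0.141% of them. Because such segments led to the choice of the interval, nothing is read from this count.

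Both ends of the stretch were narrow. At its first position, chr14:69876584, the ICSI-derived animals measured 0.11, -0.42, -0.54, 0.18 and -0.0022 in the order of their replicate numbers, and the naturally born animals -0.52, -0.41, -0.35, -0.35 and -0.49. At the position just before, 12.6 kb away, 9 of the 10 animals lay between 0.072 and 0.19, and ICSI-derived animal 2 alone was below 0, at -0.21. That one value is what drew its segment further out. At the last position, chr14:70090549, the ICSI-derived animals measured 0.33, -0.36, -0.36, 0.51 and 0.08 and the naturally born animals -0.34, -0.09, -0.44, -0.29 and -0.40. Naturally born animal 2 was the highest of the 7 low animals there, and its segment had ended one position before. At the next position, 5.65 kb further, all 10 animals were between -0.09 and 0.06 and the groups overlapped. The change thus covered at least 214 kb and, counted from the nearest positions outside, at most 232 kb.

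Averaged over each side, the members outside the stretch did not separate the same animals. Over the 24 members before it the levels were between -0.0076 and 0.02 in the ICSI-derived and between -0.005 and 0.05 in the naturally born animals. Over the 28 members after it they were between -0.03 and 0.06 and between -0.04 and 0.08. The groups overlapped in both. Single positions varied more, and the widest range outside the stretch was 0.59, at chr14:70220872. There ICSI-derived animals 1, 4 and 5 were the highest, at 0.37, 0.47 and 0.33, and naturally born animal 1 followed at 0.27. The median range of the members outside the stretch was 0.27. In the 500 kb beyond the interval, with 37 positions below and 48 above, the levels of all 10 animals were between -0.05 and 0.08. In the lower of these flanks ICSI-derived animals 1, 4 and 5 were again the highest, at 0.04, 0.03 and 0.08, and the other 7 lay between -0.05 and -0.02, without overlap but at a far smaller distance than in the stretch. In the upper flank ICSI-derived animal 5 was at -0.03 and the same order was not seen. Averaged over all 75 members the levels were 0.09, -0.13, -0.13, 0.08 and 0.04 in ICSI-derived animals 1 to 5, and -0.12, -0.08, -0.10, -0.08 and -0.12 in naturally born animals 1 to 5. The same animals were high as in the stretch, with a smaller distance because 52 of the 75 values are near 0.

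The bounds of the interval itself fell where no animal had a called loss. At the 3 members just inside its lower bound the 10 animals ranged from -0.32 to 0.08, and at the 3 positions just outside from -0.30 to 0.15. At the upper bound they ranged from -0.21 to 0.36 just inside and from -0.24 to 0.20 just outside.

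**Figure D2:**
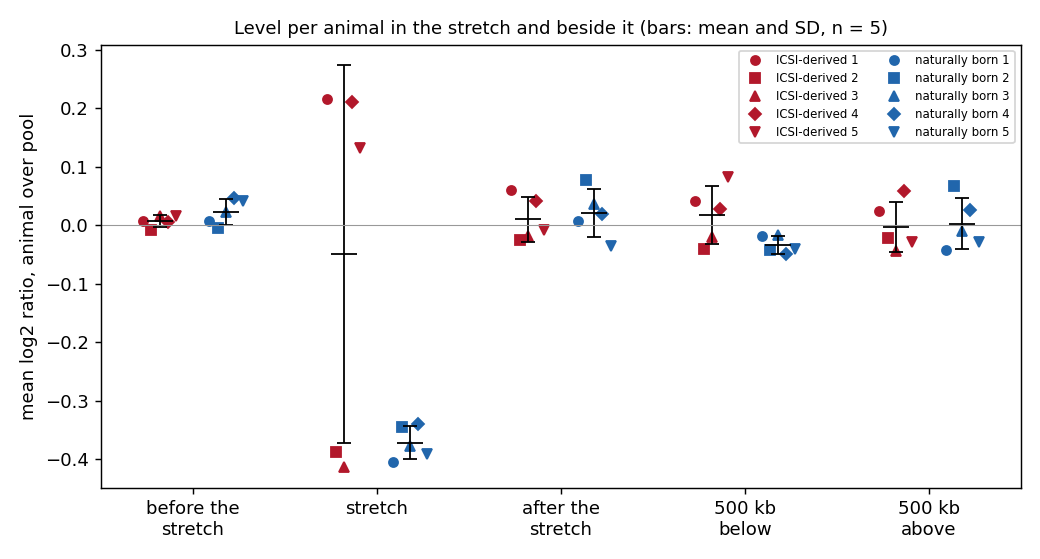
Mean log2 ratio of each animal over the pool (vertical axis) over the 24 members before the stretch, the 23 in it, the 28 after it and the 500 kb on either side of the interval (horizontal axis), with points for animals and bars for mean and SD of each group (n = 5). Only in the stretch do points lie beyond 0.1 from 0, with ICSI-derived animals 1, 4 and 5 between 0.13 and 0.22 and the other 7 between -0.41 and -0.34.

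The separation of the animals was also described position by position. The 23 positions were themselves chosen by the losses called in the 7 low animals. Neighbouring positions on the same arrays are no replicates, so these counts add no independent evidence. The 3 highest animals were ICSI-derived 1, 4 and 5 at 22 of the 23 positions. The exception was chr14:69891300, where ICSI-derived animal 5 measured -0.30 and lay among the low animals, and ICSI-derived animals 1 and 4 measured 0.21 and 0.31. The 7 low animals were below 0 at all 23 positions, and ICSI-derived animals 1, 4 and 5 were below 0 at 4, 3 and 4 of them.

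The 5 positions with the widest range over the animals were chr14:69908080, chr14:69955867, chr14:70083076, chr14:70040590 and chr14:70090549, with ranges of 1.11, 1.07, 1.02, 0.95 and 0.95. At chr14:69908080 the ICSI-derived animals measured 0.36, -0.43, -0.50, 0.53 and -0.14, and the naturally born animals -0.58, -0.32, -0.28, -0.22 and -0.44. At chr14:70083076 they measured -0.08, -0.36, -0.83, 0.08 and 0.19, and -0.57, -0.44, -0.78, -0.38 and -0.28. ICSI-derived animal 3 and naturally born animal 3 were the lowest there, so that the width of this range comes from the low side. At chr14:70040590 ICSI-derived animals 1, 4 and 5 measured 0.64, 0.55 and 0.32, and the lowest and the highest of the other 7 were -0.31 and -0.01. The order of the animals within the low set changed from position to position.

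ICSI-derived animal 5 was uneven along the stretch. Over the first 5 positions its level was -0.06, and over the remaining 18 it was 0.19. In ICSI-derived animals 1 and 4 the levels were 0.19 and 0.24 over the first 5 and 0.22 and 0.20 over the remaining positions. The first 5 positions were singled out after their values were seen, and no segment boundary was called there in this animal.

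The spread between animals differed between the groups at each of these positions. The SD over the ICSI-derived animals was above that over the naturally born at all 23 positions, with medians of 0.34 and 0.073. Over the 52 other members it was above at 33, with medians of 0.094 and 0.084. Over all autosomal positions it was above at 62.2%, with medians of 0.11 and 0.092. The naturally born animals were thus about as alike in the stretch as elsewhere on the autosomes, and the ICSI-derived animals were further apart in it. This spread is what the choice of the interval rested on.

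The separation came from the channel of the animals. After subtraction of the median of the same dye over all autosomal positions, the log2 Cy5 signal over the 23 positions was 0.78, 0.75 and 0.73 in ICSI-derived animals 1, 4 and 5 and between 0.15 and 0.21 in the other 7 animals. The Cy3 signal of the pool on the same arrays lay between 0.54 and 0.59, with 0.56 ± 0.02 (SD, n = 5) on arrays of the ICSI-derived and 0.56 ± 0.01 (SD, n = 5) on arrays of the naturally born animals. In Cy3 the arrays of the 3 high animals, at 0.56, 0.54 and 0.59, were mixed with the others. Over the 52 other members Cy5 lay between 0.16 and 0.21 and Cy3 between 0.15 and 0.18 on all arrays. In the 7 low animals Cy5 thus lay in the stretch about where it lay at the other members. The pool and the 3 high animals had a higher signal in the stretch than there. Whether the low animals lack copies or the pool and the high animals hold more was not tested. None of the 75 members was saturated or marked as an outlier on any array, and all 75 were well above background on all arrays.

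**Figure D3:**
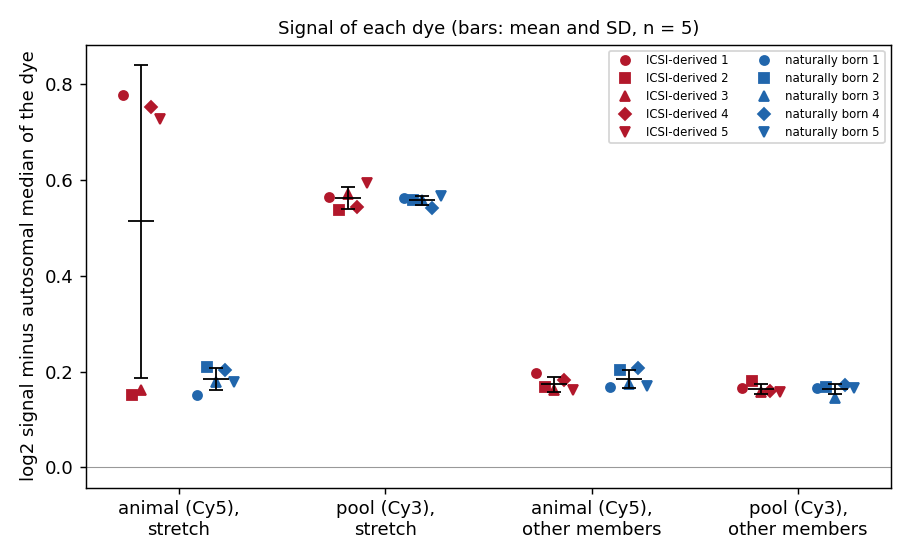
Log2 signal of each dye minus the autosomal median of that dye on the same array (vertical axis), as a mean over the 23 positions of the stretch and over the 52 other members (horizontal axis), with points for animals and bars for mean and SD of each group (n = 5). In the stretch the Cy5 signal splits into 3 animals between 0.73 and 0.78 and 7 between 0.15 and 0.21, whereas the Cy3 signal of the pool stays between 0.54 and 0.59.

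Arrays that stood apart were compared with this order. The spread of differences between neighbouring positions was 0.20 and 0.21 for ICSI-derived animals 1 and 4 and 0.17 for naturally born animal 2, against 0.14 to 0.15 for the other 7. ICSI-derived animal 5 was high in the stretch on an array of low noise, and naturally born animal 2 was low on a noisy one. Over the 52 members outside the stretch, the deviations of the 3 noisy arrays from the mean of all animals correlated at 0.22 to 0.49 in their 3 pairs, against -0.44 to 0.29 in the 42 other pairs. These correlations are a description over neighbouring positions of shared arrays. Without the 3 noisy arrays the SD over the stretch was 0.31 in the 3 remaining ICSI-derived and 0.03 in the 4 remaining naturally born animals. The difference between the group means fell from 0.32 to 0.15, since 2 of the 3 high animals were then missing.

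Slides did not separate the high animals, as each of the 3 slides held 1 of them. The difference between the group means in the stretch was 0.29 within slide 1, 0.26 within slide 2 and 0.52 within slide 3, which held 1 animal of each group. Naturally born animal 3, labelled male, stood apart on the sex chromosomes, at -0.03 on X and -0.0072 on Y, where the other males lay between -0.61 and -0.55 and between 0.75 and 0.82. At -0.38 in the stretch it was the middle of the 5 naturally born animals. Without it the naturally born mean differed from that of the ICSI-derived animals by 0.32, and the naturally born SD was 0.03.

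Sex was not used in the choice of the interval and was tested. Over the 23 positions the mean level was -0.10 ± 0.31 (SD, n = 4) in animals labelled female and -0.29 ± 0.25 (SD, n = 6) in those labelled male. The difference of 0.19 was smaller than the spread between animals of one sex (exact permutation test of the sexes within groups, two-sided, p = 0.29, 100 permutations). A single permutation is a share of 0.01, but p could not fall that low for females above males. Permutations with ICSI-derived animals 2 and 3 as the females all give a larger difference, in the opposite direction. The test was therefore weak in the direction seen. Over all 75 members the difference was 0.06 (exact permutation test, p = 0.34). Of the 3 high animals 2 were labelled female and 1 male, and both naturally born females were low. Female minus male was 0.37 among ICSI-derived and 0.01 among naturally born animals in the stretch, and the difference between these effects gave p = 0.34 in the exact permutation test. Without naturally born animal 3 the sex difference was 0.17 (exact permutation test, p = 0.28). Leaving out single animals moved this difference in both directions. It was 0.09 without ICSI-derived animal 4 and 0.11 without ICSI-derived animal 5, the 2 high females. It was 0.29 without ICSI-derived animal 1, the high male (exact permutation test, p = 0.067), and 0.27 and 0.29 without naturally born animals 4 and 5, the low females. Within slide 2, the only slide that held both sexes, it was 0.33 (exact permutation test, p = 0.5). With 1 animal of each sex per group on that slide, this test could give no p below 0.5, so it cannot decide.

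Position by position, limma over all 161460 autosomal positions, with group and sex in the model and Benjamini-Hochberg adjustment at 0.05, called 25 positions higher (0.0155%) and 7 lower (0.00434%) in the ICSI-derived than in the naturally born animals. None of the 75 members was among them. At an unadjusted p under 0.05 in limma, 19 members stood out, all of them in the stretch, and 5274 of all autosomal positions. The ICSI-derived mean was above the naturally born mean at all 23 positions of the stretch, by 0.18 to 0.42 on the log2 scale. At the 52 other members the difference ran from -0.11 to 0.14. The median difference was 0.02 over the 75 members and -0.0004 over all autosomal positions. With 2 of the 5 ICSI-derived animals at the level of the naturally born, the spread within the group was as wide as the difference, and the lowest adjusted p of a member in limma was 1. Without ICSI-derived animal 2 or 3, the low ones, it was 0.40 and 0.32 in limma. The interval was chosen by the spread of these same levels and by the losses called in them, so nothing is read from the counts.

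Between females and males limma called 6 autosomal positions (0.00372%) and none of the 75 members. At an unadjusted p under 0.05 there were 3 members and 4705 of all autosomal positions. This count of members depended on the arrays and the background correction: it was 18, with 5616 of all positions, without ICSI-derived animal 1, 1 to 5 without any other single animal, 13 without the 3 noisy arrays, 6 with slide as a block and 8 with normexp. No member passed the adjustment in any of these fits. The median of female minus male was 0.03 over the members and 0.0011 over all autosomal positions.

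Losses in 5 or more animals were found in 11 runs of autosomal positions, and in 10 of them the SD over the ICSI-derived animals was above that over the naturally born. Among all single autosomal positions this share was 62.2%. The shares are not like measures, since the runs are means over several positions and were selected on losses. The runs are not separate observations, since those between chr4:111742887 and chr4:121767386 divided the animals alike. The 23 positions on chromosome 14 form one of the 11 runs. On chromosome 3, at chr3:34295130-34523670 with 15 positions, the naturally born animals were also all low, between -0.43 and -0.36. There ICSI-derived animals 2 and 3 were high, at 0.12 each, and animals 1, 4 and 5 were low, at -0.32, -0.42 and -0.42. Each ICSI-derived animal was thus high in one of these stretches and low in the other, and the naturally born animals were low in both. The SD in the chromosome 3 stretch was 0.28 in the ICSI-derived and 0.03 in the naturally born group. At chr7:17223386-17278987, with 5 positions, the naturally born animals were alike and low as well, with an SD of 0.04 against 0.17 in the ICSI-derived. All animals were below 0 in that run, and ICSI-derived animals 4 and 5 were the highest, at -0.26 and -0.25.

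Both chromosome 17 runs in which losses were this frequent divided the naturally born animals as well. At chr17:22675168-22766280, with 9 positions, ICSI-derived animals 1, 4 and 5 were high as on chromosome 14, at 0.14, 0.08 and 0.18, but so was naturally born animal 5, at 0.07. At chr17:30586287-31030772, with 48 positions, ICSI-derived animals 1 and 5 were at 0.19 and 0.11 and naturally born animal 5 at 0.13. ICSI-derived animal 4 was low there, at -0.33, and naturally born animal 3 was in between, at -0.11. The SD over the naturally born animals was 0.20 and 0.21 in these runs, against 0.03 on chromosome 14. The runs were compared without a test, because each was selected on the losses it holds.

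**Figure D4:**
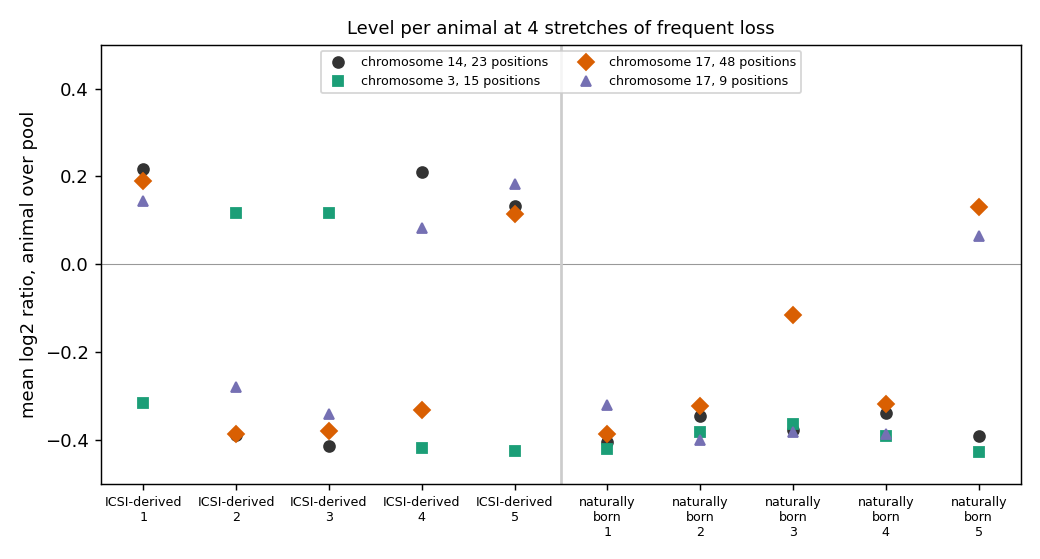
Mean log2 ratio over the pool (vertical axis) of each animal (horizontal axis) in 4 stretches where a loss was called in 5 or more animals, one symbol per stretch. On chromosome 14 ICSI-derived animals 1, 4 and 5 are high, on chromosome 3 ICSI-derived animals 2 and 3, and in both chromosome 17 stretches naturally born animal 5 is high too.

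Windows of 10 successive positions elsewhere on the autosomes were ranked by their likeness to the interval, measured as the root mean square difference of levels over the 10 animals. Of 16138 windows, 89 had an SD of at least 0.15 over the animals. The 5 nearest to the level over all 75 members were chr6:131678475-132016092, chr14:96497083-96585837, chr8:22233117-22921742, chr9:21913115-22021024 and chr5:130936117-131031520, with differences of 0.087, 0.12, 0.13, 0.13 and 0.15. In the first of them ICSI-derived animals 1, 4 and 5 were high, at 0.16, 0.10 and 0.21, and animals 2 and 3 low, at -0.18 and -0.11, as on chromosome 14. The naturally born animals were less alike there, from -0.23 to 0.02. Compared with the level over the 23 positions alone the nearest window was chr8:15992167-16068005, at a difference of 0.22. It had ICSI-derived animal 2 and naturally born animal 5 on the high side, at 0.09 and 0.05, and departed from the stretch in these animals. The chromosome 6 window named above was nearly as close, at 0.23. It had the same ICSI-derived animals high and low as the stretch, and naturally born animal 3 at 0.02.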

How the data were processed

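One 2-colour Agilent array was used for the liver DNA of each of 10 mice. Groups, sexes and replicate numbers come from the labels. The processed intensity in each deposited scanner file was background-subtracted and dye-normalised by Feature Extraction 10.7.3.1, per the file headers. The median spot and background intensity had no such correction, per the file headers. Log10 ratios in the value table deposited beside them equal those the scanner software wrote, so their direction is Cy5 over Cy3, and their medians per array lie between -0.0033 and 0.0033. Partek 6.5 is named in the submitters' processing notes, with no role given. Headers of 6 arrays name mm9, and 4 name no build.

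Control spots were left out, spots of one probe averaged, and log2 ratios of processed intensities centred on each array's autosomal median, without loess. Segments were found by optimal partitioning (penalty factor 3, at least 5 probes, absolute mean of 0.25, with lone probes pulled in where they lay over 4 robust SD from 10 neighbours). The stretch is the members covered by most of the called losses. limma 3.58.1 in R 4.3.3 tested all autosomal probes. Both were run on simulated data with independent noise, for limma with a shift shared by all ICSI-derived arrays. In the stretch only some of these animals were high, so the simulation does not show how limma performs there. The rest was done in Python 3.11.15 with numba 0.67.0, numpy 2.4.6 and pandas 2.3.3. Animals with the same replicate number shared the slide and the labelled sex, and the main fit did not pair them. Normexp used median intensities. Gene lists were planned and not run, since no annotation of mm9 was used here. Named were the segment ends, the 5 widest positions, the 3 positions on either side of the bounds and the 5 nearest windows. The members, lists and alternatives were chosen with earlier results of these data known. The number of arrays limits the precision.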

Additional observations from a re-analysis of the deposited data

Results flagged for a closer look

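Of 24 sets of 5 levels tested for one animal far from the rest of its group, 1 held such an animal. On the array labelled naturally born replicate 3 the Cy3 signal of the pool over the 52 members outside the stretch was 0.145, and the nearest of the other 4 naturally born arrays was at 0.165. It is the array that also stood apart on chromosomes X and Y. Chance gives such a gap in about 1 of 20 independent sets, so 1 among 24 is about what chance gives. The sets come from the same arrays and are not independent, so this rate is only a guide.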

How the results depend on the processing

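No result turned its direction. The difference between group means over all 75 members was 0.09 (range over leaving out each animal 0.07 to 0.12) and 0.32 over the 23 positions alone, where the ICSI-derived SD was 0.32 against 0.11 over all members, which follows from leaving out positions near 0. In the stretch the ICSI-derived SD was 0.29 to 0.36 and the naturally born SD 0.03 under every alternative run, namely medians, each animal left out, loess, normexp, 2 other centrings, the deposited ratios, no dim or flagged spots and, added after seeing the data, the 3 noisiest arrays left out. Without these 3 arrays the difference over all members was 0.03. The deposited ratios equal the scanner ratios and no member was dim or flagged, so these alternatives could not change the SDs. Leaving out an animal could change only the SD of its own group. Losses were called in 7 animals under a penalty factor of 6, a minimum of 10 positions, normexp and loess, and in 2 at a threshold of 0.4. No member was called by limma under any alternative, for group or sex. Over all autosomal positions the calls between groups ran from 16 to 47 higher and 4 to 30 lower, most without ICSI-derived animal 3, and those between sexes from 0 to 2 higher and 0 to 19 lower, against 1 and 5. The p of the sex difference in the stretch ran from 0.067 to 0.85.

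With the replicate number as a replicate block the difference over all members was 0.09, and 0 members and 25 autosomal positions (21 higher, 4 lower) were called by limma, against 25 higher and 7 lower without it. A balanced block of this kind cannot change the difference between the group means. Deviations of animals with the same number correlated at 0.05, -0.28, 0.10, -0.006 and 0.15. Animals with the same number shared the slide and the labelled sex. Pairs with different numbers were not compared, so these correlations cannot decide whether the numbers pair the animals further. A replicate block for sex was not run, because sex is the same within each number.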
